A study of Mus musculus with 10 samples.

Results

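Thrombopoietin is the cytokine that drives megakaryocytes to form platelets, and its receptor carries no enzyme activity of its own. The bound receptor works through Janus kinases, chiefly JAK2 with TYK2 beside it, which phosphorylate the transcription factors STAT3, STAT5A and STAT5B. Activated STATs turn on target genes such as the serine/threonine kinase gene Pim1, and the adaptor LNK, encoded by Sh2b3, holds JAK2 signalling back. Platelets have no nucleus, so their RNA was loaded by the megakaryocyte that shed them. The 7 genes described here are Jak2, Tyk2, Stat3, Stat5a, Stat5b, Pim1 and Sh2b3, chosen by name for their place in this pathway, of 23420 genes in the count table.

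The table covers 10 libraries of platelets sorted by FACS from the blood of adult mice, 5 Tomato+ and 5 Tomato-. Tomato is a red fluorescent protein. The labels name no driver, allele or strain, and they do not tie libraries to animals. A p-value here thus rests on library-to-library spread, part or all of which could be technical. The comparison made is Tomato+ over Tomato-.

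Library totals ranged from 6505769 to 16179973 counts in Tomato+ and from 5411417 to 10596707 counts in Tomato-, and 4692 genes had a count in any library. Detection means at least 1 count, and levels are given per 1000000 counts of the library (CPM). All 10 platelet markers examined, among them Itga2b and Pf4, had counts in all 10 libraries. Markers of other cells were sparse. Of the neutrophil, monocyte, B cell and T and NK cell lists, 1 gene each had counts, namely S100a9, Ly6c2, Cd37 and Nkg7. Their summed levels ran from 0 to 240 CPM, 0 to 0.0872 CPM, 0 to 115 CPM and 0 CPM throughout in Tomato+ libraries, against 0 CPM throughout for the first 3 lists and 0 to 20.7 CPM for the last in Tomato-. Red cell markers, led by the haemoglobin row Beta-s, summed to 401 to 931 CPM in Tomato+ and 47.8 to 4142 CPM in Tomato- libraries. Endothelial markers, led by Pecam1, which platelets also express, summed to 464 to 1501 CPM in Tomato+ and 130 to 1725 CPM in Tomato- libraries.

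The STAT genes lie together on chromosome 11 (GRCm38), Stat5b at 100780731 to 100850724 on the minus strand, Stat5a at 100859351 to 100885169 on the plus strand and Stat3 at 100885098 to 100939540 on the minus strand. The ends of Stat5a and Stat3 overlap by 72 bases on opposite strands, where reads cannot be told apart if strand was not used in counting, and 8.63 kb separate Stat5a from Stat5b. The coding sequences of Stat5a and Stat5b were identical at 2080 of 2291 aligned positions (90.8%), with 1 identical run of 324 bases. Reads from such stretches can be assigned to either gene or dropped, which bears on the counts of this pair. The stretch shown here, bases 163 to 262 of both coding sequences, has the median number of differences for windows of 100 bases. Its 4 differing bases are in capitals, and it was read 5′ to 3′ from the GENCODE M21 transcripts.
Stat5a: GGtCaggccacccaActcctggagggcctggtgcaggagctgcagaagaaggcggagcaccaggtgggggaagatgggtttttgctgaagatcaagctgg
Stat5b: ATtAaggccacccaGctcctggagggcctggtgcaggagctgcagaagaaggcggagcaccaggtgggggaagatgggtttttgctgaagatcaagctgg
Of 5535 distinct 50-base stretches in the transcripts of Stat5b, 608 also occurred in those of Stat5a, and 8.21% of those of Stat5a occurred in Stat5b. The rest of either transcript tells the genes apart.

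Of the 7 genes, 6 had a count in at least 1 library and none had one in all 10. Detection was close to all or none. Of 23 values above 0, 17 were at 500 counts or more, 5 were at 1 to 3 counts and 1 lay between. Over all genes, 60.6% of 14900 values above 0 were at 500 counts or more and 13.3% at 1 to 3. Tomato+ libraries held 4, 2, 1, 2 and 5 of the 7 genes in the order of replicates 1 to 5, and Tomato- libraries held 2, 2, 2, 3 and 0. The library with none, Tomato- replicate 5, also had the lowest total (5411417 counts) and the fewest detected genes of all (807), and Tomato+ replicate 5 with 5 of the genes had the most (2450). The numbers of pathway genes per library were the same after every library was thinned to 5411417 counts.

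**Figure D1:**
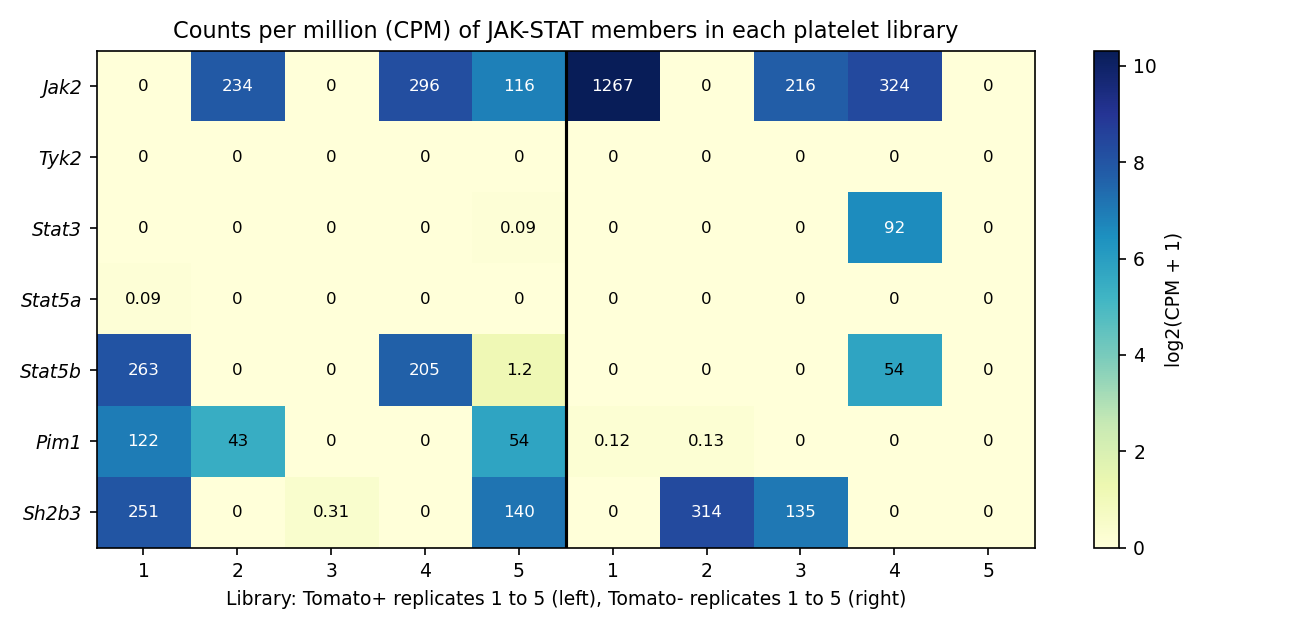
CPM of the 7 genes (rows) in each library (columns, Tomato+ left of the line and Tomato- right of it), printed in each cell and coloured by log2(CPM + 1). Jak2 was at 116 CPM or more in 6 libraries and 0 in 4, Tyk2 was 0 in all 10, and Pim1 was above 1 CPM in 3 Tomato+ libraries and in no Tomato- library.

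Jak2, the main kinase of the thrombopoietin receptor (chromosome 19, 29251828 to 29313080, plus strand), was detected most often of the 7 genes. It had 0, 234, 0, 296 and 116 CPM in Tomato+ replicates 1 to 5, against 1267, 0, 216, 324 and 0 CPM in Tomato- replicates 1 to 5. Detection was 3 of 5 libraries in each group, and the levels overlapped. The highest level, in Tomato- replicate 1, stood far above the rest. Mean levels were 129 ± 135 CPM in Tomato+ and 362 ± 526 CPM in Tomato- (SD, n = 5 each), and without Tomato- replicate 1 the Tomato- mean was 135 CPM.

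Jak2 was the only one of the 7 that passed the expression filter and entered the edgeR quasi-likelihood test. Its log2 fold change was -1.24 (SE 2.56, Tomato+ over Tomato-) with a 95% interval of -6.67 to 4.19 and an adjusted p of 0.9996, so differences of either direction and of many-fold size lay within the interval. Without Tomato- replicate 1 the log2 fold change was 0.070. Among 1016 genes tested, 0 (0%) were called at an adjusted p under 0.05, and 9 had an unadjusted p under 0.05, the smallest being 0.00110. With the filter removed, edgeR again called none of the 6 detected genes.

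Tyk2, the second kinase of the receptor (chromosome 9, 21104068 to 21131243, minus strand), had 0 counts in all 10 libraries. A count of 0 allows up to 3 counts, or 0.185 to 0.461 CPM in Tomato+ and 0.283 to 0.554 CPM in Tomato- libraries, for counting error only. Amplified reads are not independent molecules, and Jak2 itself ran from 0 to above 1000 CPM between libraries, so these limits do not bound Tyk2 in the platelets. In bulk RNA, fewer cells with a transcript and less of it per cell cannot be told apart.

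Jak1, the Janus kinase shared by many other cytokine receptors and not one of the 7, was detected in more libraries than Jak2, 9 against 6. Its mean level was also higher, at 705 against 245 CPM, and genes at 316 to 1000 CPM had a median of 9 libraries. It had 2206, 363, 12.8, 1016 and 215 CPM in Tomato+ replicates 1 to 5 and 951, 0, 146, 180 and 1958 CPM in Tomato- replicates 1 to 5. It was detected in all 6 libraries with Jak2 and in 3 of the 4 without it. The edgeR log2 fold change of Jak1 was 0.49 (SE 1.52, adjusted p = 0.9996). Jak3, the Janus kinase of lymphoid cells, had no count in any library.

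The STAT genes differed in detection. Stat5b had 263, 0, 0, 205 and 1.22 CPM in Tomato+ replicates 1 to 5, against 0, 0, 0, 53.5 and 0 CPM in Tomato- replicates 1 to 5. It was detected in 3 Tomato+ libraries and 1 Tomato- library, and both groups held libraries at 0. Mean levels were 93.9 ± 130 CPM in Tomato+ and 10.7 ± 23.9 CPM in Tomato- (SD, n = 5 each), and leaving out Tomato+ replicate 1 brought the Tomato+ mean to 51.5 CPM, while leaving out Tomato- replicate 4 brought the Tomato- mean to 0 CPM. The edgeR fit without a filter gave a log2 fold change of 2.97 (SE 3.76, adjusted p = 0.688), and DESeq2 gave 3.24 (SE 2.89, adjusted p = 0.9996). With Tomato- replicates 1, 2 and 5 left out, each of which had fewer than 1000 genes detected, Stat5b passed the edgeR filter at 1.61 (SE 4.28).

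Stat5a was all but undetected, with 1 count in Tomato+ replicate 1 and 0 in the other 9 libraries. Over the 10 libraries the table held 1 count of Stat5a beside 6974 of Stat5b, and no fold is given where both groups lie under the limit of 3 counts. Stat3 had 1 count in Tomato+ replicate 5 and 971 counts, or 91.6 CPM, in Tomato- replicate 4. All other libraries were at 0, so its level rests on 1 library. Tomato- replicate 4 had the second highest number of detected genes (2430), the highest Beta-s level (3257 CPM) and the sole counts of the T and NK cell list; their part in the Stat3 and Stat5b levels was not tested. The ratio of pooled CPM of Stat3 was 0.000739, Tomato+ over Tomato-, with a 95% exact interval of 1.87e-05 to 0.00413 that covers counting error alone and not the spread between libraries. DESeq2 gave no p for Stat3.

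Pim1, the STAT5 target that encodes a survival kinase (chromosome 17, 29490753 to 29496112, plus strand), was above 1 CPM in Tomato+ libraries alone. It had 122, 43.1, 0, 0 and 53.8 CPM in Tomato+ replicates 1 to 5, from 1421, 590, 0, 0 and 617 counts. Tomato- replicates 1 to 5 had 1, 1, 0, 0 and 0 counts, or at most 0.125 CPM. No Tomato- library reached the levels of the 3 high Tomato+ libraries, but 2 Tomato+ libraries were at 0, so the groups overlapped. Summed over the libraries there were 2628 counts in Tomato+ and 2 in Tomato-, a ratio of pooled CPM of 943 with a 95% exact interval of 261 to 7790 for counting error only. Tomato+ replicate 1 held 1421 of the 2628 counts, and without it the Tomato+ mean was 24.2 CPM, against 43.7 CPM over all 5. Each of the 2 Tomato- counts came from a different library, and the Tomato- mean was 0.0495 CPM over all 5, 0.0313 CPM without replicate 1 and 0.0306 CPM without replicate 2. Of the 50-base stretches of Pim1 transcripts, 8.78% also occur, on either strand, in those of Gm26885, which was not analysed here.

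The call for Pim1 depended on the method. Over the 10 libraries it did not pass the edgeR filter, and without a filter edgeR gave a log2 fold change of 9.82 (SE 5.54, unadjusted p = 0.0764, adjusted p = 0.196). DESeq2 gave 9.77 (SE 2.65) and called it, with an adjusted p of 0.00256. The DESeq2 call held with each of the 10 libraries left out in turn (adjusted p 0.00111 to 0.0225) and with Tomato- replicates 1, 2 and 5 left out together (adjusted p = 0.0226). With those 3 libraries left out Pim1 passed the edgeR filter, and edgeR did not call it (log2 fold change 11.86, SE 7.34, adjusted p = 0.985). Both fold changes depend on how the method treats counts near 0. Pim1 was 1 of 154 genes that DESeq2 called higher in Tomato+, 7.62% of the 2020 genes it gave an adjusted p. Of these 154, 142 had at most 1 count in every Tomato- library, as Pim1 did. At 10 counts or more, Pim1 was present in 3 of 5 Tomato+ and 0 of 5 Tomato- libraries (Fisher's exact test, two-sided p = 0.167, adjusted p = 1 over 3829 genes). With 5 libraries per group this test cannot call a single gene after adjustment over so many, so it does not decide the question. In the Tomato+ libraries with Pim1, the S100a9 level of neutrophils was 0, and of the B cell list Cd37 had 38.2 CPM in replicate 5 and 0 in replicates 1 and 2. The red cell row Beta-s had 73.4, 178 and 338 CPM in Tomato+ replicates 1, 2 and 5, which had Pim1, and 1.38 and 59.6 CPM in replicates 3 and 4, which had none. The endothelial gene Plvap had 294 and 66.0 CPM in Tomato+ replicates 1 and 5 and 0 in the other 3. It had 120 and 121 CPM in Tomato- replicates 3 and 4, where Pim1 was at 0. Other genes of the endothelial list went differently. Pecam1 had 230, 440, 1345, 1072 and 386 CPM in Tomato+ replicates 1 to 5, highest in replicates 3 and 4, which had no Pim1. Tie1 had 0, 23.6, 156, 4.39 and 59.4 CPM in Tomato+ replicates 1 to 5. Tomato+ libraries also had larger totals and 1589 ± 531 detected genes, against 1391 ± 712 in Tomato-; the part of these values in the Pim1 difference was not tested.

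**Figure D2:**
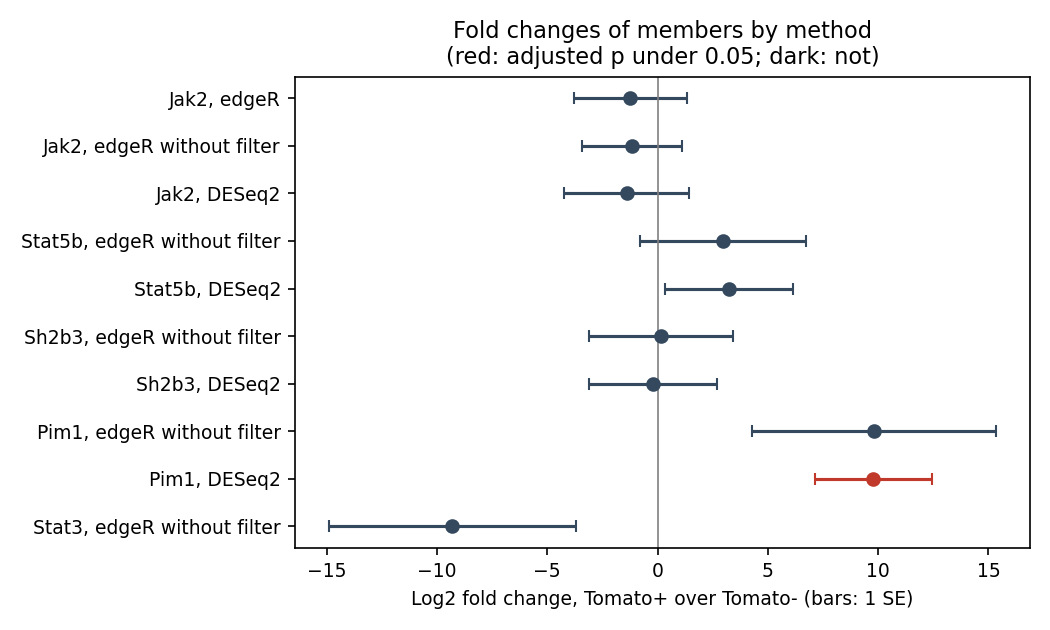
Log2 fold changes of 5 genes, Tomato+ over Tomato-, with bars of 1 SE, by edgeR with and without its expression filter and by DESeq2. The DESeq2 value of Pim1 (9.77) has an adjusted p under 0.05; the edgeR value of Pim1 without a filter (9.82) has a wider SE and has not.

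Sh2b3, which encodes the inhibitory adaptor LNK (chromosome 5, 121815488 to 121837646, minus strand), had 251, 0, 0.307, 0 and 140 CPM in Tomato+ replicates 1 to 5, against 0, 314, 135, 0 and 0 CPM in Tomato- replicates 1 to 5. Levels above 100 CPM occurred in 2 libraries of each group, and the groups overlapped. Mean levels were 78.1 ± 114 CPM in Tomato+ and 89.7 ± 138 CPM in Tomato-. Leaving out Tomato+ replicate 1 brought the mean of that group to 35.0 CPM, and leaving out Tomato- replicate 2 brought the other to 33.7 CPM. The log2 fold change was 0.15 (SE 3.26, adjusted p = 0.990) by edgeR without a filter and -0.20 (SE 2.89, adjusted p = 0.9996) by DESeq2, so its sign turned with the method. Sh2b3 and Jak2 were detected together in 2 libraries, Jak2 without Sh2b3 in 4, Sh2b3 without Jak2 in 3 and neither in 1.

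Detection by group was compared for all 4692 genes with a count. Of the 6 detected pathway genes, Stat5a, Stat5b, Pim1 and Sh2b3 had at least 1 count in more Tomato+ than Tomato- libraries. Jak2 and Stat3 were detected in equal numbers of each, and none of the 6 in fewer Tomato+ libraries. This lean rested in part on very low counts. At 10 counts or more, Stat5b was in 3 Tomato+ libraries against 1 Tomato- library and Pim1 in 3 against 0. Jak2 was in 3 libraries of each group, Sh2b3 in 2 of each, Stat3 in 0 Tomato+ against 1 Tomato-, and Stat5a in no library. At 1 count or more, 44.2% of all 4692 genes had more Tomato+ libraries, 22.7% equal numbers and 33.0% fewer. By Fisher's exact test none of the 6 was called (unadjusted p 0.524 for Stat5b and 1 for the others, adjusted p = 1 for each). Of all genes, 0% were called, and 13 had an unadjusted p under 0.05. The smallest p of this test was 0.00794, the least that 5 against 5 libraries can give. A single gene could thus not be called after adjustment over 4692 genes, and the test does not show that detection was alike. None of the 7 had groups that did not overlap in CPM. Every Tomato+ library lay above every Tomato- library for 0.128% of the 4692 genes and below for 0.0213%.

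Per kilobase of exon, which allows levels of different genes to be compared, Jak2 was highest at 48.8 ± 75.9 CPM per kb (mean ± SD over 10 libraries). Sh2b3 followed at 17.5 ± 24.9, Stat5b at 9.44 ± 17.7, Pim1 at 6.50 ± 12.0, Stat3 at 0.963 ± 3.04 and Stat5a at 0.00120 ± 0.00379 CPM per kb. Each SD exceeded its mean, so no neighbours in this order differed beyond their spread. The order also differed between the groups. In Tomato+ libraries the means were 25.7 CPM per kb for Jak2, 16.9 for Stat5b, 16.2 for Sh2b3, 13.0 for Pim1, 0.00240 for Stat5a and 0.00183 for Stat3. In Tomato- libraries they were 71.9 CPM per kb for Jak2, 18.7 for Sh2b3, 1.93 for Stat5b, 1.92 for Stat3, 0.0147 for Pim1 and 0 for Stat5a. Among 4427 genes with a count and an exon length, the level of Jak2 was above 88.3% of genes, that of Sh2b3 above 78.8%, Stat5b above 71.4%, Pim1 above 66.3%, Stat3 above 39.7% and Stat5a above 2.51%.

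The number of libraries with each gene was set beside that of genes at a like level. Jak2 was detected in 6 libraries, where 426 genes within 2-fold of its mean CPM had a median of 7 and 9.39% of them were detected in all 10. Sh2b3 was detected in 5 and Stat5b in 4 libraries, against medians of 5 and 4 for genes within 2-fold of their levels. Pim1 was detected in 5 libraries against a median of 2, but in 3 of these at 10 counts or more.

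**Figure D3:**
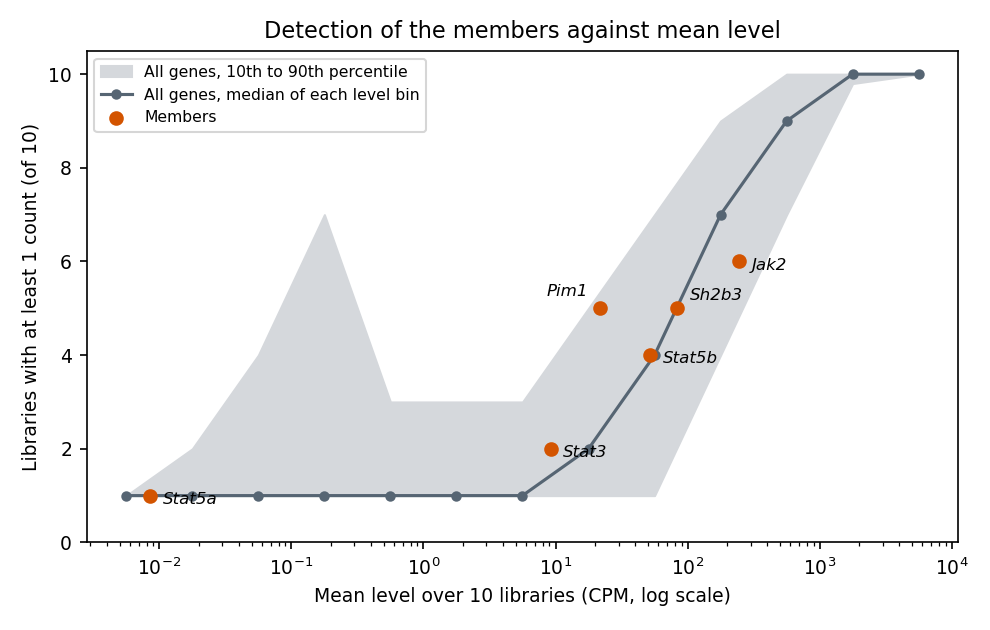
Number of libraries with at least 1 count (of 10) against mean CPM over the libraries on a log scale, for the 6 detected pathway genes (points) and for all genes (line, median of each level bin of 20 genes or more; shading, 10th to 90th percentile). Jak2 at 6 libraries lies below the line, and Stat5b at 4 and Sh2b3 at 5 lie near it.

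Profiles over the 10 libraries were compared by the root mean square difference of log2(CPM + 1), each gene centred on its own mean. Closest to Jak2 among 1428 genes were Yaf2 at 0.68 and the tetraspanin gene Tspan14 at 0.77. Tspan14 was detected in the same libraries as Jak2 in all 10 cases. Closest to Stat5b were Tnfrsf21, which encodes death receptor 6, at 0.56 and the ubiquitin ligase gene Wwp2 at 0.58, among 2525 genes. Closest to Pim1 were the sorting nexin gene Snx6 at 0.34 and the G protein-coupled receptor kinase gene Grk6 at 0.59, among 1818. Snx6 averaged 50.8 CPM in Tomato+ and 0 in Tomato- libraries, but it was picked for its likeness to Pim1 in these same libraries. Its means thus add no support to the Pim1 difference. Closest to Sh2b3 were Lpp at 0.60 and Gimap6 at 0.76, among 1818.

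Among the 102 other pathway genes analysed, most had no count in any library. A count was present for 43 of them, against 4692 of all 23420 genes. Of 22 genes listed as negative regulators or related to them, 7 had a count in any library. Every gene of the SOCS family, including Cish, was at 0 in all 10. The tyrosine phosphatase gene Ptpn1, whose product acts on JAK2 and TYK2, was the most abundant. It had 89.6, 1068, 946, 164 and 377 CPM in Tomato+ replicates 1 to 5 and 0, 876, 433, 574 and 837 CPM in Tomato- replicates 1 to 5. The edgeR log2 fold change of Ptpn1 was 0.24 (95% interval -2.94 to 3.42, adjusted p = 0.9996). Ptpn11, which encodes the phosphatase SHP-2, averaged 125 ± 148 CPM in Tomato+ and 196 ± 227 CPM in Tomato- libraries (SD, n = 5 each).

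Of 25 receptors for other cytokines that signal through Janus kinases, 6 had a count and none entered the test. Epor, the erythropoietin receptor gene, was detected in 1 library of each group, at 60.6 CPM in Tomato+ replicate 5 and 69.5 CPM in Tomato- replicate 4, and Ifngr2 at 51.8 CPM in Tomato- replicate 4 and 1 count in replicate 3. These 2 libraries had the most detected genes of their groups. Among the other kinases and STATs, Stat6 was detected in Tomato- replicates 4 and 5 alone, at 96.3 and 1697 CPM, and Stat2, Stat4, Pim2 and Pim3 had no count in any library.

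The Ras-MAPK and PI3K branches below JAK2 had the largest share of genes with a count among the 5 pathway lists, at a median of 2 libraries per gene. Of 31 listed genes analysed, 21 had a count and 9 entered the test, with 0 called, 4 estimates higher and 5 lower in Tomato+ and a median log2 fold change of -0.12. Over all 1016 tested genes the median was 0.21, with 592 estimates higher and 424 lower. Scaling by total counts moved the median of all tested genes to -0.03 and that of these 9 to -0.30. Rap1b, a small GTPase of integrin activation, had 1939 to 3814 CPM (median 2799) in Tomato+ and 2787 to 4963 CPM (median 3506) in Tomato- libraries. Its log2 fold change was -0.12 (SE 0.27, 95% interval -0.70 to 0.45, adjusted p = 0.9996), so a 2-fold difference in either direction lay outside the interval. Grb2, the adaptor that links receptors to Ras, was detected in 4 Tomato+ libraries at 158 to 175 CPM and in 1 Tomato- library at 104 CPM (log2 fold change 2.63, SE 2.89, adjusted p = 0.9996). The kinase gene Akt2 had an estimate of 1.39 (SE 2.57), and the GTPase gene Nras 0.03 (SE 2.31).

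Among 15 genes known as targets of STAT3 or STAT5, 5 had a count and 2 entered the test, with 0 called. Ccnd3, which encodes cyclin D3 and acts in megakaryocyte endoreplication, had 947, 807, 1478, 1367 and 1341 CPM in Tomato+ replicates 1 to 5 and 0, 1918, 1554, 1540 and 975 CPM in Tomato- replicates 1 to 5. Bcl2l1, which encodes the platelet survival protein BCL-XL, had 603, 0, 645, 429 and 813 CPM in Tomato+ replicates 1 to 5 and 0.123, 886, 400, 615 and 176 CPM in Tomato- replicates 1 to 5. Their log2 fold changes were 0.20 (SE 1.13) and 0.50 (SE 1.79), each with an edgeR adjusted p of 0.9996. Tomato- replicate 1, the library with the highest Jak2 level, had no count of Ccnd3 and 1 of Bcl2l1. Over the 102 further pathway genes analysed, 43 had a count, 20 of them in more Tomato+ libraries (46.5%), 7 in equal numbers and 16 in fewer.

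**Figure D4:**
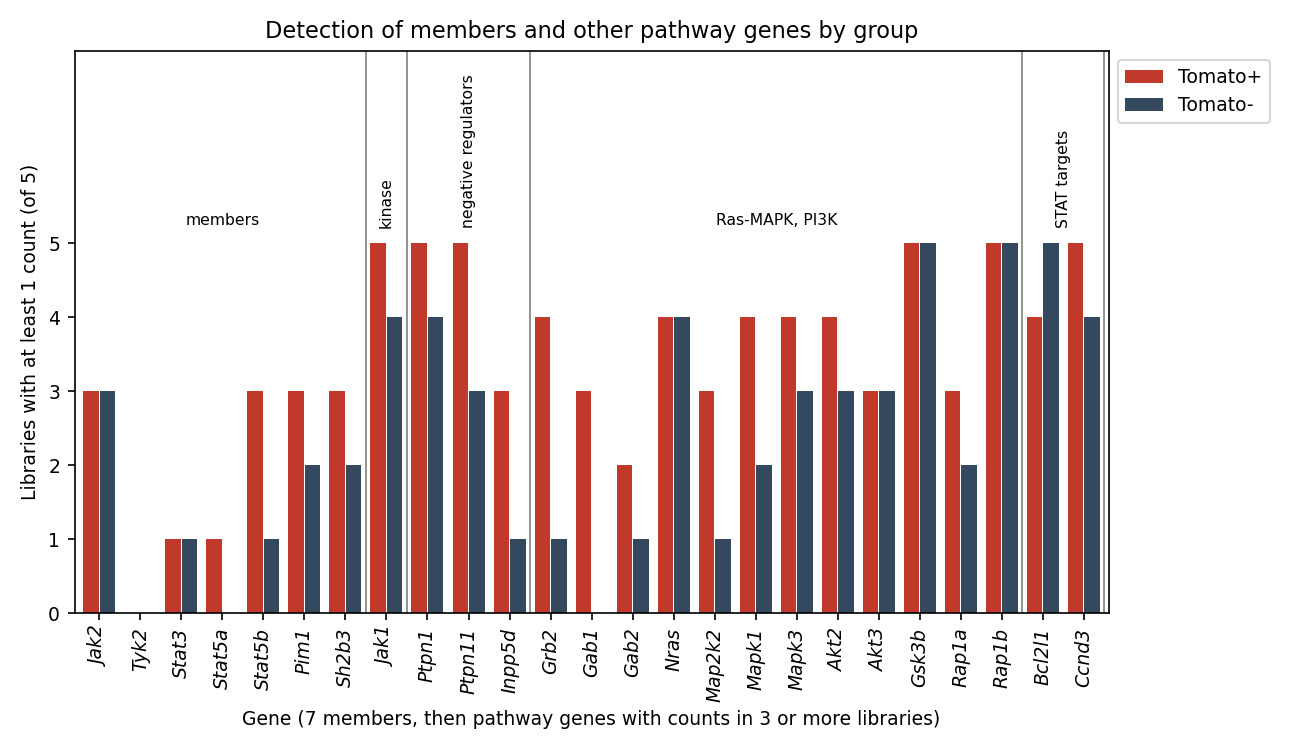
Libraries with at least 1 count (of 5 per group) for the 7 genes and for the 18 further pathway genes with counts in 3 or more of the 10 libraries, Tomato+ left of Tomato- for each gene. Of the 18, 13 were detected in more Tomato+ libraries, 4 in equal numbers and 1 in fewer (72.2%, 22.2% and 5.56%); over all 1914 genes with counts in 3 or more libraries the shares were 48.2%, 31.1% and 20.7%. Rap1b and Gsk3b were detected in all 10.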

How the data were processed

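Trimmomatic, FastQC, STAR, featureCounts and the build mm10 are named without versions in the submitters' processing notes; the sources used here do not give the annotation, strand setting or treatment of multiply aligned reads. The authors deposited raw counts per gene symbol, 1 column per library, made from polyadenylated RNA by Smart-seq+ and Nextera XT, per the labels' protocols. All 45 pairs of libraries differed beyond counting error. Of the symbols, 93% matched GENCODE M21, which gave GRCm38 positions and exon lengths.

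Tests across all genes used edgeR 4.0.16 in R 4.3.3 (quasi-likelihood, robust, TMM, default filter with minimum count 10 and total 15), with Benjamini-Hochberg adjustment over all tested genes. The SE was derived from the F statistic. DESeq2 1.42.0, limma voom 3.58.1, other scalings and filters, a replicate block and left-out libraries were alternatives. Detection used Fisher's exact test in scipy 1.17.1. The code of the tests was checked on simulated data. The detection simulation had more libraries per group than these data. The edgeR simulation was required to succeed only at a low spread between libraries. Neither shows the power of the tests on these data.

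Genes named are the 7 pathway genes, the 2 nearest profiles of each with counts in 3 or more libraries and, per pathway list, the 2 highest by mean CPM and up to 2 of smallest p. Each cell type list gives its highest gene. Any other gene was named after its values were seen. Genes and lists were chosen with earlier results of these data known. The receptor's own row is not reported here.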

Additional observations from a re-analysis of the deposited data

Results flagged for a closer look

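Among 14 groups of 5 values (7 genes, Tomato+ and Tomato-), 11 had any count, and in 5 of them a single library stood apart from the rest by a gap of over 0.71 of the group's range. Chance flags about 1 in 20 groups of continuous values, a rate that does not apply to groups with counts in a single library, which are flagged by construction. Jak2 in Tomato- replicate 1 was at 1267 CPM. Stat3 was at 0.0872 CPM in Tomato+ replicate 5 and at 91.6 CPM in Tomato- replicate 4, Stat5a at 0.0855 CPM in Tomato+ replicate 1, and Stat5b at 53.5 CPM in Tomato- replicate 4. For Stat3, Stat5a and Stat5b the other 4 libraries of the group were at 0, so these 4 flags carry no weight, and the values of 0.0872 and 0.0855 CPM are 1 count each.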

How the results depend on the processing

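The count of called genes was 0 in edgeR under other scalings, filters, the replicate block and each left-out library. It was 217 with DESeq2, 1 with limma voom and 2 with the replicate block in limma voom. Of the 7 genes only Pim1 was called, by DESeq2. The expression filter kept Pim1 out of limma voom, and out of edgeR over all 10 libraries or with 1 left out. edgeR tested it with no filter, or with the 3 libraries with under 1000 detected genes left out, and did not call it. Of the 5 pairs of same-numbered libraries, correlations of deviations ran from -0.11 to 0.12, and 2 of 5 Tomato+ libraries correlated best with their own number, so the numbers were not taken as pairs. With the replicate block in edgeR the log2 fold change of Jak2 was -0.13. With 1 library left out it ran from -1.80 to 0.070; the log2 fold change of Jak2 was 0.070, with its sign reversed, without Tomato- replicate 1; the cause was not tested. With detection at 10 counts or more, Stat3 and Stat5a in Tomato+ and Pim1 in Tomato- were detected in 0 libraries. No gene of the 7 had 10 counts in every library, so that filter gives no value for them. Leaving out the 3 libraries with under 1000 detected genes, and libraries in turn from DESeq2, were chosen after seeing the data. Depth per library allows 0.185 to 0.554 CPM at 0 counts for counting error only, which does not bound the level in the platelets.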
